A study of Mus musculus with 15 samples.

Results

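The genes described here are Fos, Jun, Junb, Jund, Atf3, Egr1, Ier2, Ier3 and Myc, a group of immediate-early genes and Myc measured in hearts of mice that lose MAT1 in heart muscle cells. They were chosen by name, with earlier results of these data known. Every probe set that the platform annotation assigns to exactly 1 of these symbols was taken. All 9 genes were measured, of 8251 genes that the annotation names in this way, by 14 of the 12422 probe sets on the array. Biotin-labelled total RNA of 15 hearts was hybridised, 1 heart sample to an array. Cardiac knockout (CKO) mice carried αMHC-Cre+/0 and MAT1F/F, that is, no intact MAT1 allele where Cre acts, and gave 5 samples at 4 weeks of age and 4 samples at 2 weeks. Control littermates carried the same αMHC-Cre+/0 with MAT1F/+, and so kept a wild-type allele, and gave 3 samples at each age. Because all groups carry Cre under the cardiomyocyte α-myosin heavy chain promoter, the comparison leaves Cre itself constant, and all other cells of the heart keep MAT1. MAT1, encoded by Mnat1, is a subunit of the kinase module of the general transcription factor TFIIH, which phosphorylates RNA polymerase II.

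Immediate-early genes are transcribed within minutes of a stimulus such as a growth factor, stretch or injury, and need no new protein synthesis for it. Fos and the Jun proteins are basic leucine zipper factors that dimerise into AP-1, Atf3 is a stress-induced member of the ATF/CREB family that can pair with Jun proteins, and Egr1 is a zinc finger factor. Ier2 and Ier3 encode small proteins induced early by the same kinds of stimulus, Ier3 having roles in cell survival, and Myc is a basic helix-loop-helix factor that drives growth and ribosome production. In heart muscle, Fos, Egr1, Atf3 and Myc are known to be induced by pressure load.

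Stretches just before the annotated start of 4 of these genes are shown because the letters that ATF/CREB and Jun dimers are known to recognise, TGACGT and TGACATCA, lie in 3 of them, while the stretch of Ier3, the other gene whose level was called different at 4 weeks, held none of the letters searched. Each is 120 bases long, from RefSeq on GRCm38.p6, written 5′ to 3′ on the gene's strand and ending at the base before the start. Capitals mark TGACGT or its reverse complement ACGTCA, TGACATCA, and the TATA box letters TATAAA.
Fos (chr12:85473770-85473889, plus strand): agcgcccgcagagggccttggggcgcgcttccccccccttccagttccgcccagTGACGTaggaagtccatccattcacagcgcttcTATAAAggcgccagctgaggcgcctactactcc
Jun (chr4:95052223-95052342, minus strand): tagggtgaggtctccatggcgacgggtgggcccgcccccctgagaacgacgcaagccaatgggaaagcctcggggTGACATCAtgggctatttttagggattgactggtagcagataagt
Atf3 (chr1:191183334-191183453, minus strand): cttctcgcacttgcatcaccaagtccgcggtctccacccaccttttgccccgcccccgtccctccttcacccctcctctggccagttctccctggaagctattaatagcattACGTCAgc
Ier3 (chr17:35821593-35821712, plus strand): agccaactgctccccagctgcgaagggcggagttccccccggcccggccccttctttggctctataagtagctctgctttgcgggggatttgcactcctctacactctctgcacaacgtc
In Fos, TGACGT lay at positions -66 to -61 and TATAAA at -33 to -28 from the start. In Jun, TGACATCA lay at -45 to -38, and in Atf3 the reverse complement of TGACGT lay at -8 to -3. The same stretches of Junb and Jund, not shown, held none of the letters searched either. In Junb, TATAAA lay after the start, at 1 to 6. Windows from 250 bases before to 50 bases after the start were searched on both strands for 6 of the 9 genes. Egr1, Ier2 and Myc were not among these 6. The search was for these letters, for the AP-1 letters TGANTCA, for CACGTG, which Myc recognises, and for the CArG box of serum response factor. Of 32851 such windows in the mouse, 7.51% held TGACGT, 3.62% TGACATCA, 13.6% TATAAA, 7.81% TGANTCA, 7.15% CACGTG and 1.63% a CArG box. No 2 of the motifs found here overlapped, and a match describes the letters only.

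Levels are given as linear intensities, as deposited, and array medians lay between 173.7 and 216.8. The arrays fell into 2 sets by their correlation, 6 arrays in set 1 and 9 in set 2, with r of at least 0.937 within a set and at most 0.924 between sets. Nothing in the labels names the sets, each of which holds arrays of all 4 groups. Differences within the sets are given for some results only, and others that also moved between the sets are not printed. Set 1 holds only 1 control array at each age, so every difference from control within it rests on that array. Jun, Atf3 104156_r_at, Atf3 161645_r_at and Egr1 161802_i_at separated the sets completely, 4 of 14 probe sets against 34.4% of all. Mnat1 was read by 2 probe sets that did not separate the genotypes over all arrays of an age. Mnat1 98979_at had 38.9 to 78.3 in CKO hearts and 40.1 to 79.2 in control hearts at 4 weeks, and 23.7 to 52.0 in CKO hearts and 41.4 to 86.3 in control hearts at 2 weeks, so the labels could not be checked with it and CKO means hearts so labelled. Within the sets it was lower in CKO hearts at 2 weeks, at 52.0 and 33.9 against 86.3 in the control heart of set 1, and at 32.5 and 23.7 against 43.0 and 41.4 in the control hearts of set 2. At 4 weeks it was 74.3 and 67.6 in CKO hearts against 74.3 in the control heart of set 1, and overlapped within set 2. The other probe set, Mnat1 161557_at, was higher in CKO hearts at 4 weeks within both sets. It read 300 and 314 against 244 in set 1, and 148, 141 and 149 against 106 and 86.0 in set 2. At 2 weeks Mnat1 161557_at overlapped within both sets, so it did not check the labels either. Sex, inferred from Xist and Uty, was female in 4 of 5 CKO and 1 of 3 control hearts at 4 weeks. At 2 weeks it was female in 1 of 4 CKO and 1 of 3 control hearts. The labelled tissue was checked by 10 cardiomyocyte markers, none of which was at the floor of the table on any array. At 4 weeks the summed intensity of 10 cardiomyocyte markers was 66666 to 71111 in CKO hearts and 81121 to 86637 in control hearts, with 6 markers called lower. That of 13 fibroblast markers was 27793 to 36683 in CKO hearts and 13077 to 14764 in control hearts, with 11 markers called higher and none at the floor. Smooth muscle and pericyte markers summed to 6436 to 10377 in CKO hearts and 5127 to 5806 in control hearts, with 2 of 8 called higher. The sums of the other marker lists overlapped between the genotypes at 4 weeks. Of these, 1 of 10 endothelial markers was called higher, 1 of 11 macrophage markers, the dim Aif1, was called lower, none of 7 lymphocyte and 4 erythroid markers was called, and 1 macrophage and 1 lymphocyte marker were at the floor on some array. These shifts stand beside every 4-week difference below, and their part in it was not tested. In whole-heart RNA, a change in the number of cells of a type and a change in RNA per cell cannot be told apart.

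At 4 weeks, Atf3 104155_f_at and Ier3 rose in CKO hearts, by 3.47-fold and 1.78-fold, while the other Atf3 probe sets did not pass the test. Fos, Egr1, Myc and Ier2 had higher means in CKO hearts but did not pass the test, and Jun, Junb and Jund differed by little. Differences are CKO minus control in log2(intensity + 16), from a limma fit to all 12422 probe sets, and a probe set is called where the Benjamini-Hochberg adjusted p is under 0.05. Of the 14 probe sets 2 were called, both higher, where 6.27% of all probe sets were called and 3.86% were higher. Over all probe sets 479 were higher and 300 lower, a split that quantile normalization turned to 365 higher and 410 lower, with the same 2 of the 14 called. Every CKO array was above every control array in 4 of the 14, both probe sets of Fos, Atf3 104155_f_at and Ier3, against 8.15% of all probe sets, and in none was every CKO array below, against 4.71%. The median difference of the 14 was 0.54, against 0.07 over all probe sets, and 13 of the 14 were above 0 (12 after quantile normalization), against 58.9% of all. Because the genes were chosen with earlier results of these data known, these shares describe the group and do not test it.

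**Figure D1:**
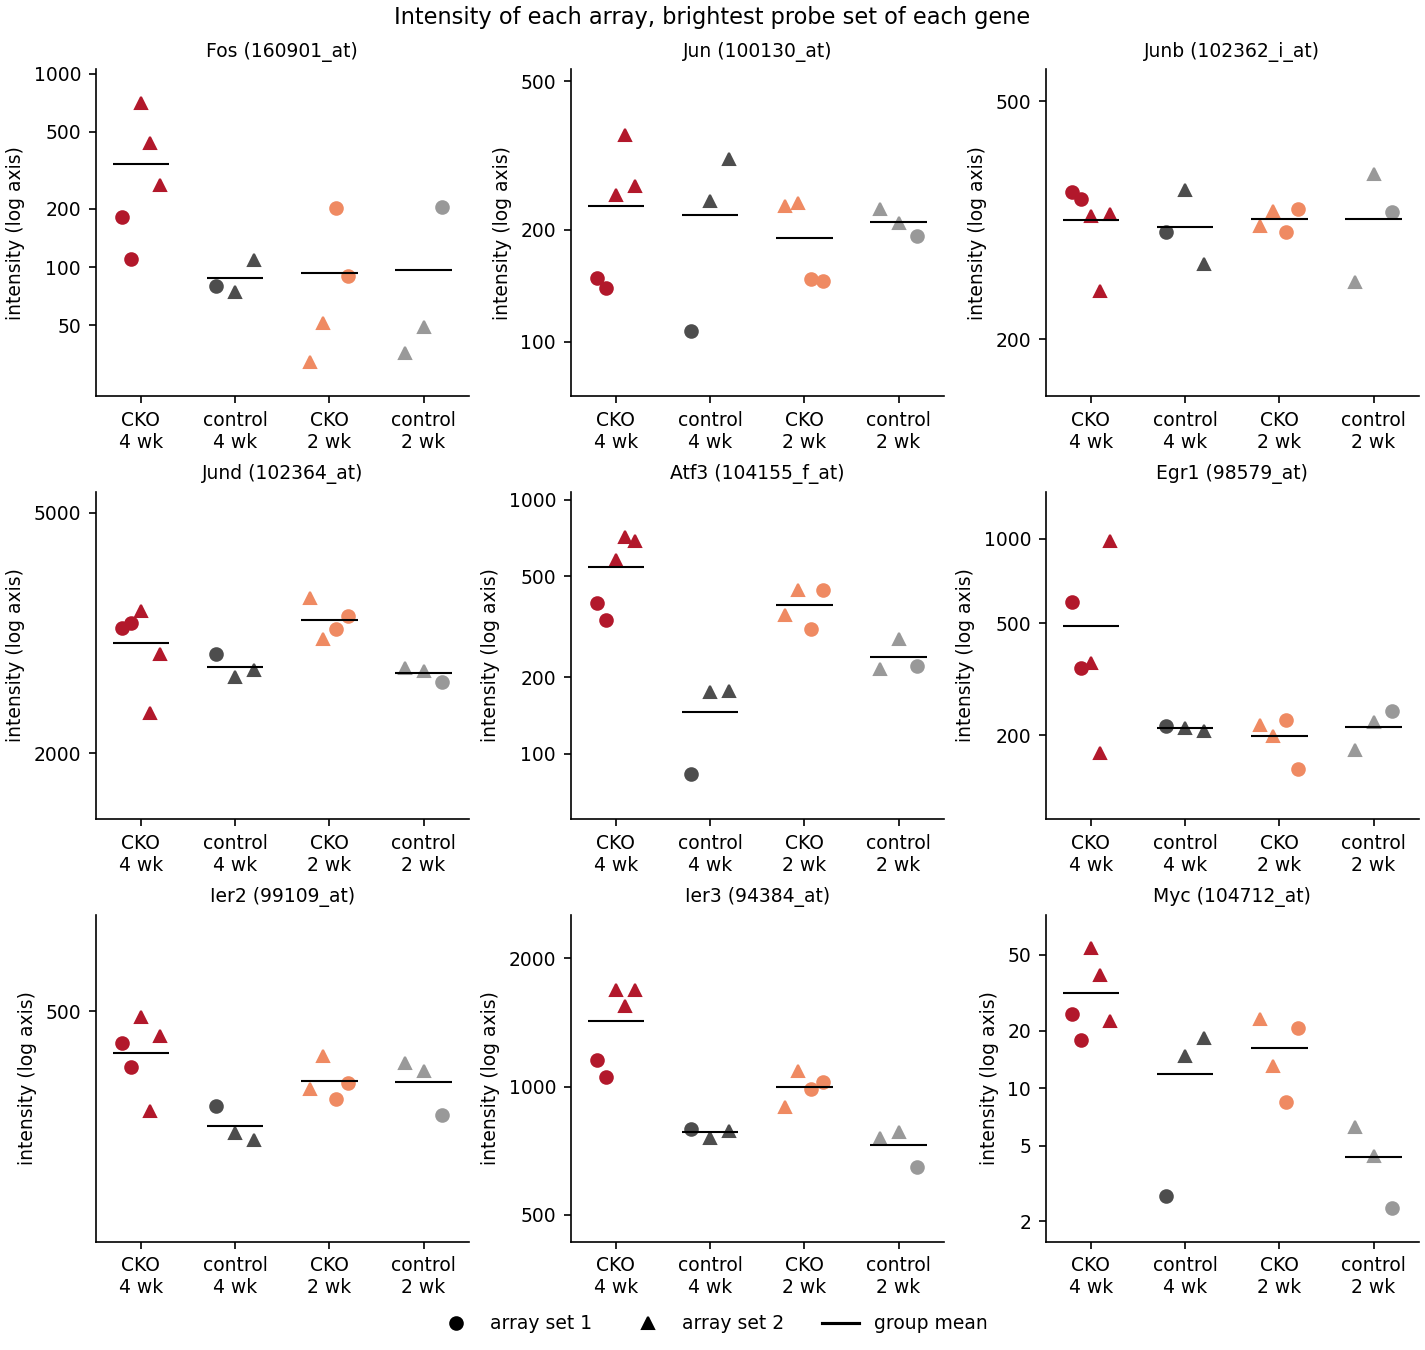
Intensity on each array, on a log axis with its own range in each panel, for the brightest probe set of each of the 9 genes. Points are arrays, circles for array set 1 and triangles for set 2, and lines are group means. For Atf3 the CKO points at 4 weeks lie between 335 and 717 and the control points between 82.9 and 177, and for Ier3 the 4-week CKO points lie above all other points except 1 of the 2-week CKO points.

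Atf3 104155_f_at read 394, 335, 578, 717 and 686 in CKO hearts at 4 weeks, against 82.9, 176 and 177 in control hearts. The groups did not overlap, the lowest CKO array being above the highest control array. The difference was 1.80 ± 0.28 (SE; n = 5 and 3; limma adjusted p = 0.0014), with a 95% interval of 1.20 to 2.40. It was 1.94 within array set 1, from 2 CKO arrays and 1 control array, and 1.81 within set 2. The other Atf3 probe sets did not show a difference of this size. Atf3 104156_r_at read 89.0, 83.7, 200.4, 258 and 228 in CKO hearts and 55.9, 112 and 119 in control hearts. Those groups overlapped, and the difference was 0.68 ± 0.42 (limma adjusted p = 0.516). With array set as a block it was 0.75 ± 0.13 (limma adjusted p = 0.00040), and it was called. Atf3 161645_r_at read 258, 239, 479, 394 and 304 in CKO hearts and 193, 424 and 344 in control hearts, a difference of 0.08 ± 0.33 (limma adjusted p = 0.978). The suffixes f and r are the manufacturer's marks for probe sets whose probes fit several similar sequences or were picked under relaxed rules, so the 3 probe sets of Atf3 need not read the same transcripts.

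Ier3 read 1157, 1054, 1683, 1548 and 1689 in CKO hearts at 4 weeks, against 795, 759 and 787 in control hearts. All 5 CKO arrays were above the control arrays, which lay close together. The difference was 0.83 ± 0.16 (SE; n = 5 and 3; limma adjusted p = 0.0062), with a 95% interval of 0.48 to 1.18. It was smaller within set 1, at 0.47 ± 0.10 (limma adjusted p = 0.0541), than within set 2, at 1.07 ± 0.11 (limma adjusted p = 0.00014), and that contrast between sets was not tested. With every array scaled to the same median it was 0.75 ± 0.21 (limma adjusted p = 0.0628) and no longer passed.

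Fos, the AP-1 subunit most strongly tied to acute stimuli, varied most among the 9 genes. Fos 160901_at read 182, 109.9, 702, 440.3 and 265 in CKO hearts at 4 weeks, against 79.7, 74.5 and 109 in control hearts. The groups did not overlap, but the lowest CKO array lay at the level of the highest control array, and the CKO arrays ranged widely. The difference was 1.53 ± 0.60 (limma adjusted p = 0.185), with a 95% interval of 0.25 to 2.81. Its spread within groups, 0.91 on the log2 scale, was at the 96.6th percentile of all probe sets. Within set 2 the difference was 2.08 ± 0.35 (limma adjusted p = 0.0021), and within set 1 it was 0.72 ± 0.48 (limma adjusted p = 0.403). The dimmer Fos 161716_at read 26.5, 25.4, 44.1, 30.5 and 25.5 in CKO hearts and 16.6, 14.8 and 5.32 in control hearts, without overlap, a difference of 0.73 ± 0.34 (limma adjusted p = 0.315).

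The Jun genes, whose proteins are the obligate partners of Fos in AP-1, did not separate the genotypes at 4 weeks. Jun read 148, 139.7, 247, 359 and 262 in CKO hearts and 107, 239 and 309 in control hearts. Over all 15 arrays Jun lay at 107 to 192 in array set 1 and at 209 to 359 in set 2, so the order of its values followed the set. Its difference was 0.11 ± 0.33 (limma adjusted p = 0.964), and with the set as a block it was 0.16 ± 0.17 (limma adjusted p = 0.583). Within set 1, with 1 control array, the Jun difference was 0.38, and within set 2 it was 0.07. Junb, another AP-1 subunit, differed by 0.03 ± 0.17 at Junb 102362_i_at (-0.06 after quantile normalization) and by -0.10 ± 0.17 at Junb 102363_r_at. The 95% interval at the first of these was -0.32 to 0.39. Jund, the Jun gene that resting cells express, read 3224, 3289, 3446, 2337 and 2915 in CKO hearts and 2920.0, 2677 and 2749.8 in control hearts. Its difference was 0.12 ± 0.12 (limma adjusted p = 0.786) with a 95% interval of -0.13 to 0.36, and its spread within groups was at the 5.16th percentile of all probe sets. The intervals leave room for differences in either direction.

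Egr1, the zinc finger factor, read 596, 347, 359.9, 174 and 978 in CKO hearts at 4 weeks, against 216, 212 and 207 in control hearts. Of the 5 CKO arrays 4 were above all control arrays and replicate 4 was below them, while the control arrays were nearly equal. The difference was 0.94 ± 0.38 (limma adjusted p = 0.202). Without CKO replicate 4 it was 1.24 ± 0.30 (limma adjusted p = 0.0304) and was called, and without CKO replicate 5, the highest array, it was 0.64 ± 0.30 (limma adjusted p = 0.324). With all arrays kept and array set and inferred sex as blocks it was 1.16 ± 0.35 (limma adjusted p = 0.0296), and was called too. Replicate 4 was also the lowest CKO array for Ier2, Jund and Junb, and the highest for Atf3 and Jun. Egr1 161802_i_at, a dim probe set at the 4.56th percentile of mean level, read 7.16 to 41.0 in CKO hearts and 6.94 to 35.4 in control hearts.

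Ier2 read 441, 401, 489, 336 and 453 in CKO hearts at 4 weeks, against 343, 308 and 301 in control hearts, so that 4 of 5 CKO arrays were above all control arrays. The difference was 0.39 ± 0.14 (limma adjusted p = 0.154). Myc 104712_at read 24.5, 17.9, 54.2, 39.4 and 22.5 in CKO hearts and 2.71, 14.7 and 18.3 in control hearts, with 1 CKO array just below the highest control array. Its level was at the 4.06th percentile of all probe sets, close to the pseudocount of 16, so its difference of 0.77 ± 0.27 (limma adjusted p = 0.133) understates any change in intensity. With array set as a block, Ier2 (0.40 ± 0.12; limma adjusted p = 0.0281) and Myc (0.80 ± 0.22; limma adjusted p = 0.0150) were called. Ier2 was not called with quantile normalization added to the block (0.31; limma adjusted p = 0.0719) or with inferred sex added (0.35; limma adjusted p = 0.0762), where Egr1 was called in its place. With array set alone as a block 5 of the 14 were called, 2 of Atf3 together with Ier2, Ier3 and Myc, where 22.2% of all probe sets were called. Fos 160901_at (limma adjusted p = 0.0649) and Egr1 98579_at (limma adjusted p = 0.0712) stayed outside.

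**Figure D2:**
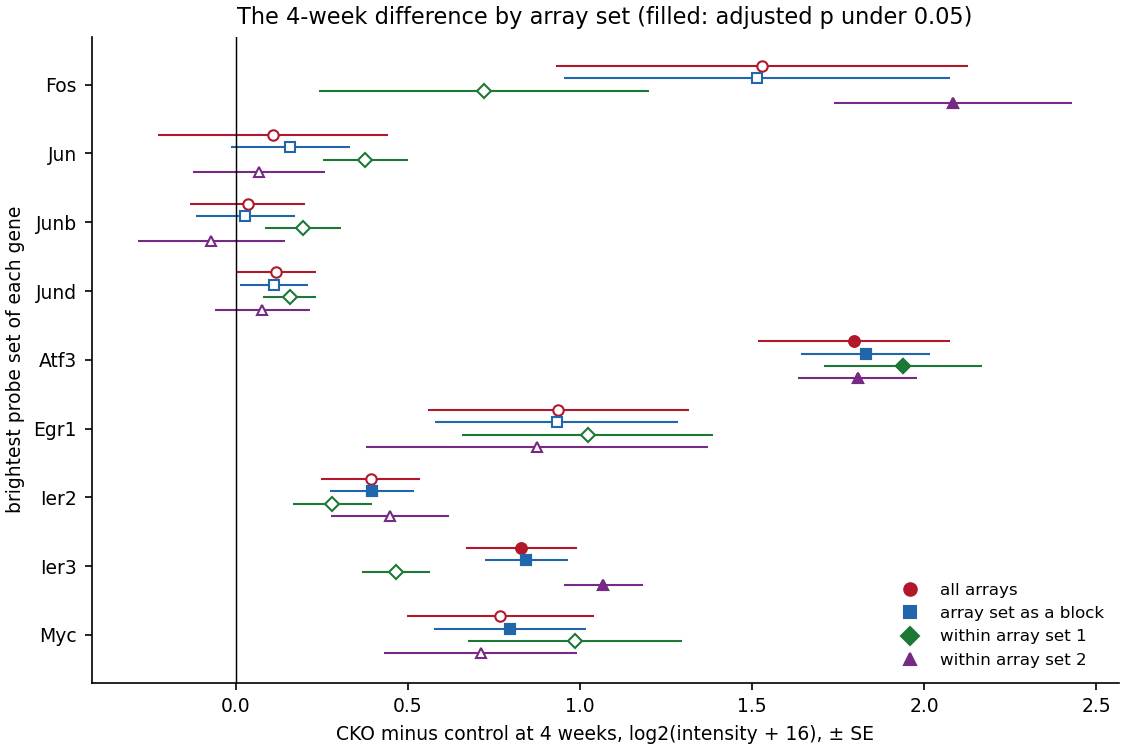
CKO minus control at 4 weeks for the brightest probe set of each gene, in log2(intensity + 16) with SE bars, from all arrays, after blocking on the array set, and inside either set alone. Filled symbols have an adjusted p under 0.05. Atf3 lies between 1.80 and 1.94 in the 4 fits, while Fos is at 0.72 within set 1 and 2.08 within set 2. Set 1 holds 1 control array at 4 weeks.

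At 2 weeks, none of the 14 probe sets was called, and over all probe sets 0.00805% were. Atf3 104155_f_at, Ier3 and Myc already stood higher in every CKO array than in any control array, by differences that did not pass the test, and Fos and Egr1 did not. By the unadjusted limma p, 4 of the 14 (Atf3 104155_f_at, Ier3, Myc and Jund) were under 0.05, against 1.04% of all probe sets. The same 4 had every CKO array above every control array, against 1.52% of all probe sets, and Junb 102363_r_at had every CKO array below, against 0.733%. The array-set block called 0 of the 14 as well, where 0.0564% of all probe sets were called.

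Atf3 104155_f_at read 352, 442, 309 and 441 in CKO hearts at 2 weeks, against 216, 284 and 222 in control hearts. The difference was 0.64 ± 0.29 (SE; n = 4 and 3; unadjusted p = 0.046 and adjusted p = 1 by limma). The other Atf3 probe sets overlapped between the genotypes, and their differences had opposite signs. Atf3 104156_r_at read 225, 183, 87.8 and 84.4 in CKO hearts and 154, 136 and 65.7 in control hearts, a difference of 0.22 ± 0.44. Each of its CKO arrays lay above the control arrays of the same array set. Atf3 161645_r_at read 311, 406, 229.5 and 174 in CKO hearts and 428, 488 and 226 in control hearts, a difference of -0.42 ± 0.35. With array set as a block the differences were 0.40 ± 0.13 (limma adjusted p = 0.793) and -0.29 ± 0.16 (limma adjusted p = 0.998). Ier3 read 895, 1088, 989 and 1028 in CKO hearts and 757, 781 and 649 in control hearts, a difference of 0.45 ± 0.17 (limma unadjusted p = 0.019, adjusted p = 1). Myc read 23.1, 13.1, 8.45 and 20.7 in CKO hearts, against 6.25, 4.39 and 2.35 in control hearts. These are among the dimmest values of the array, and the difference was 0.65 ± 0.28 (limma unadjusted p = 0.039, adjusted p = 1). Jund read 3609.5, 3087, 3209 and 3372 in CKO hearts and 2774, 2742 and 2624 in control hearts. Its difference was 0.29 ± 0.12 (limma unadjusted p = 0.033, adjusted p = 1), where at 4 weeks its groups overlapped.

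Fos 160901_at read 32.2, 51.1, 201 and 89.6 in CKO hearts at 2 weeks, against 36.0, 49.0 and 203 in control hearts. Both genotypes spread over the same range, and the difference was 0.04 ± 0.63. That range followed the array set, with 89.6 to 203 in set 1 and 32.2 to 51.1 in set 2. The difference was -0.54 within set 1, which holds 1 control array of this age, and -0.03 within set 2. Egr1 98579_at read 218, 199, 226 and 151 in CKO hearts and 177, 222 and 244 in control hearts, a difference of -0.11 ± 0.40. The summed fibroblast markers overlapped at this age, at 18340 to 30242 in CKO hearts and 17493 to 25051 in control hearts. So did the cardiomyocyte markers, at 78889 to 83917 in CKO hearts and 76338 to 85244 in control hearts. The summed smooth muscle and pericyte markers did not overlap, at 8030 to 10085 in CKO hearts and below 8030 in every control heart. None of these 8 markers was called at 2 weeks. The sums of the remaining marker lists overlapped. The part of the smooth muscle and pericyte shift in the 2-week differences was not tested.

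**Figure D3:**
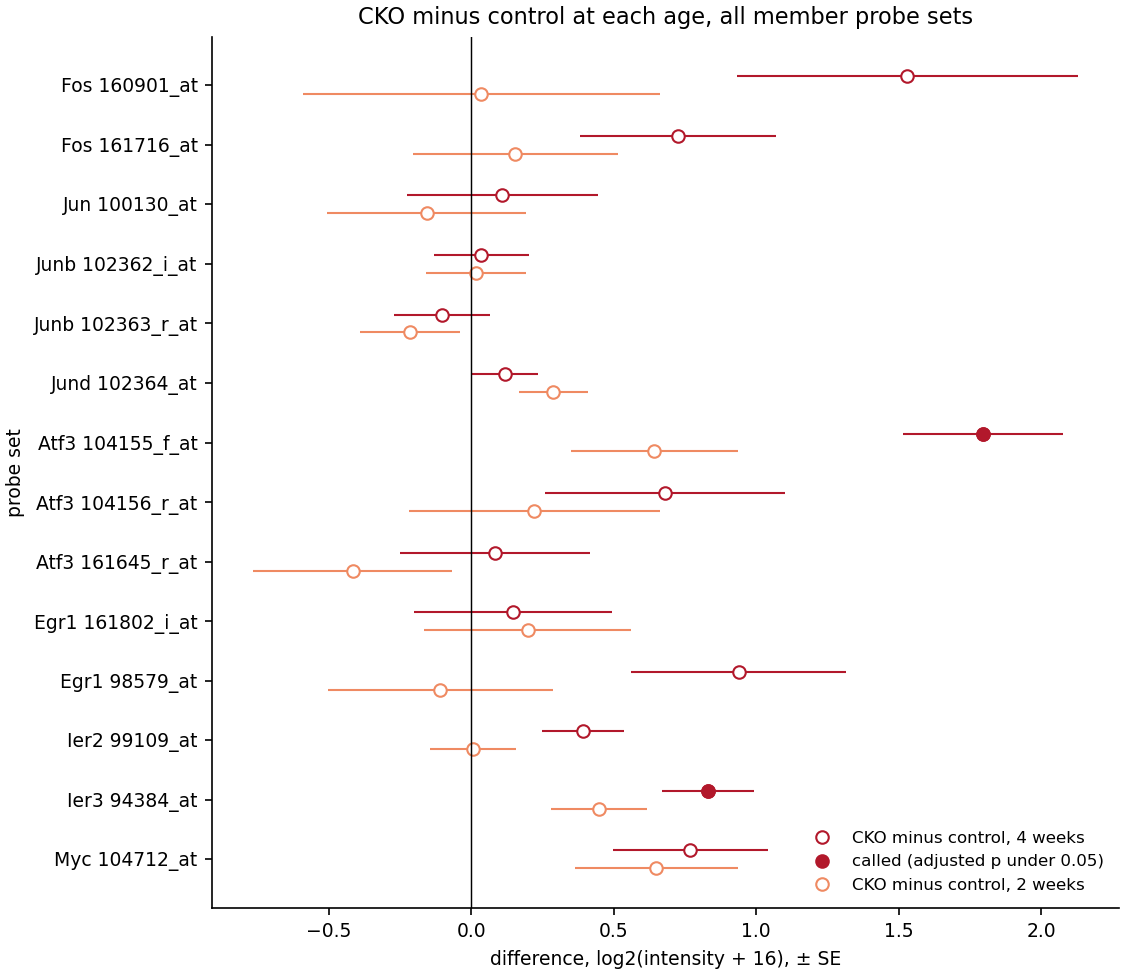
CKO minus control at 4 weeks and at 2 weeks for all 14 probe sets, in log2(intensity + 16) with SE bars. Filled symbols have an adjusted p under 0.05, which only Atf3 104155_f_at and Ier3 reach, both at 4 weeks, at 1.80 and 0.83.

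Whether the CKO effect differed between the ages was tested as the 4-week difference minus the 2-week difference. None of the 14 was called, where 0.531% of all probe sets were, and 1 of the 14 had an unadjusted limma p under 0.05 against 6.88% of all. That was Atf3 104155_f_at, at 1.15 ± 0.41 (limma adjusted p = 0.404). With array set as a block it was 1.10 ± 0.27 (limma adjusted p = 0.0250) and was called, where 5.5% of all probe sets were called. It was 1.24 within set 1 and 1.17 within set 2. For Fos 160901_at the estimate was 1.49 ± 0.87 (95% interval -0.36 to 3.35), for Egr1 98579_at 1.05 ± 0.55 (-0.13 to 2.22), for Ier3 0.38 ± 0.23 (-0.12 to 0.88) and for Myc 0.12 ± 0.39 (-0.72 to 0.96). Within set 1, with 1 control array at each age, the Ier3 estimate was -0.16. A later appearance of the Fos and Egr1 differences than of the Ier3 and Myc differences is therefore not shown by the test.

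Between the ages within CKO hearts, 0 of the 14 were called, where 3.33% of all probe sets were, and 3 had an unadjusted limma p under 0.05, against 12.2% of all. These were Fos 160901_at, 1.68 ± 0.55 higher at 4 weeks than at 2 weeks (limma adjusted p = 0.140), Egr1 98579_at, 1.04 ± 0.35 (limma adjusted p = 0.152), and Ier3, 0.48 ± 0.15 (limma adjusted p = 0.109). With array set as a block the same 3 were called, Fos at 1.70 (limma adjusted p = 0.0362), Egr1 at 1.05 (limma adjusted p = 0.0404) and Ier3 at 0.46 (limma adjusted p = 0.0096), where 14.3% of all probe sets were called. Inferred sex was female in 4 of 5 CKO hearts at 4 weeks and in 1 of 4 at 2 weeks. With inferred sex added to the block, Fos differed by 1.96 (limma adjusted p = 0.0347), Egr1 by 1.32 (limma adjusted p = 0.0170) and Ier3 by 0.46 (limma adjusted p = 0.0259). Fos differed by 0.06 ± 0.39 within set 1 and by 2.99 ± 0.35 within set 2, and the contrast between the sets was not tested. In control hearts Fos differed between the ages by -1.20 within set 1, with 1 control array of each age, and by 0.87 within set 2, neither called, against 0.18 over all arrays. Ier3 likewise differed by 0.13 within set 1 and 0.72 within set 2, and Egr1 by 1.23 and 0.88.

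Within control hearts, 0 of the 14 differed between the ages by the test, where 0.338% of all probe sets did. The only one with an unadjusted limma p under 0.05 was Atf3 104155_f_at, against 5.41% of all probe sets. Its control arrays at 4 weeks, 82.9, 176 and 177, all lay below those at 2 weeks, 216, 284 and 222, as in 4.21% of all probe sets. The difference was -0.73 ± 0.31 (limma adjusted p = 0.845), and it was called with array set and inferred sex as blocks (limma adjusted p = 0.0459). In CKO hearts the same probe set differed by 0.43 ± 0.26 between 4 and 2 weeks (limma adjusted p = 0.626). That difference between the ages in CKO hearts was -0.02 within set 1 and 0.71 within set 2 (limma adjusted p = 0.0267), where it was called. In control hearts it was -1.27 within set 1, which holds 1 control array of each age, and -0.46 within set 2, called in neither.

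Of 43 other immediate-early genes measured, 5 rose at 4 weeks, none fell and 38 were not called, with a median difference of 0.19. For this list and those after it, the shares of all probe sets called, 6.27% and 3.86% higher, are the background, and 0.07 is the median. These lists too were chosen with earlier results of these data known, so their counts and medians are descriptions only. Ccn2, a matrix-bound growth factor modulator, read 3039, 2706, 5406, 4735 and 4588 in CKO hearts and 759, 1089.7 and 1492 in control hearts, a difference of 1.87 ± 0.29 (limma adjusted p = 0.0015). Gadd45g, a stress-response gene, differed by 0.87 ± 0.20 (limma adjusted p = 0.0158). Mafk, a small Maf basic leucine zipper factor, differed by 0.78 ± 0.14 (limma adjusted p = 0.0034). The kinase gene Plk2 (0.61) and the nuclear receptor gene Nr4a1 (0.67) were the others called, named here after their values were seen. No gene of this list was called at 2 weeks.

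Among 14 measured AP-1 and ATF/CREB dimer partners outside the 9 genes, 1 rose at 4 weeks and none fell, with a median of 0.10. It was Ddit3, the stress-induced partner of C/EBP factors, which read 357, 367, 313, 412 and 382 in CKO hearts and 246, 198 and 280.1 in control hearts, a difference of 0.58 ± 0.15 (limma adjusted p = 0.0374). Of 16 measured kinases and serum response factor genes that act upstream of immediate-early transcription, none was called, with a median of 0.04.

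Genes downstream were described by lists drawn from textbook targets. Of 16 AP-1 target genes 3 rose and none fell at 4 weeks, with a median of 0.36. Lox, which cross-links collagen, read 516, 501, 1275, 1832 and 714 in CKO hearts and 96.4, 21.9 and 48.1 in control hearts, a difference of 3.73 ± 0.54 (limma adjusted p = 0.00080). Timp1, a metalloproteinase inhibitor, differed by 1.76 ± 0.29 (limma adjusted p = 0.0019), and Cd44, the hyaluronan receptor, by 0.89 ± 0.25 (limma adjusted p = 0.0470). Lox, Timp1 and Ccn2 are also made by fibroblasts, whose markers rose in the same hearts by a median of 1.01, and the part of fibroblasts in these differences was not tested.

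The Myc network list holds partners, antagonists and cofactors of Myc, and also Ndrg2, a gene that Myc is known to repress. Of its 13 measured genes none rose and 1 fell at 4 weeks, with a median of 0.08. The gene that fell was Ndrg2, at -0.47 ± 0.10 (limma adjusted p = 0.0119). Of 29 Myc target genes none rose and 1 fell, with a median of 0.03. It was Hspd1, the mitochondrial chaperonin that Myc is known to activate, which read 1914, 1902, 1439.9, 1308 and 1624 in CKO hearts and 2556, 2764 and 2665 in control hearts, a difference of -0.71 ± 0.13 (limma adjusted p = 0.0033).

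**Figure D4:**
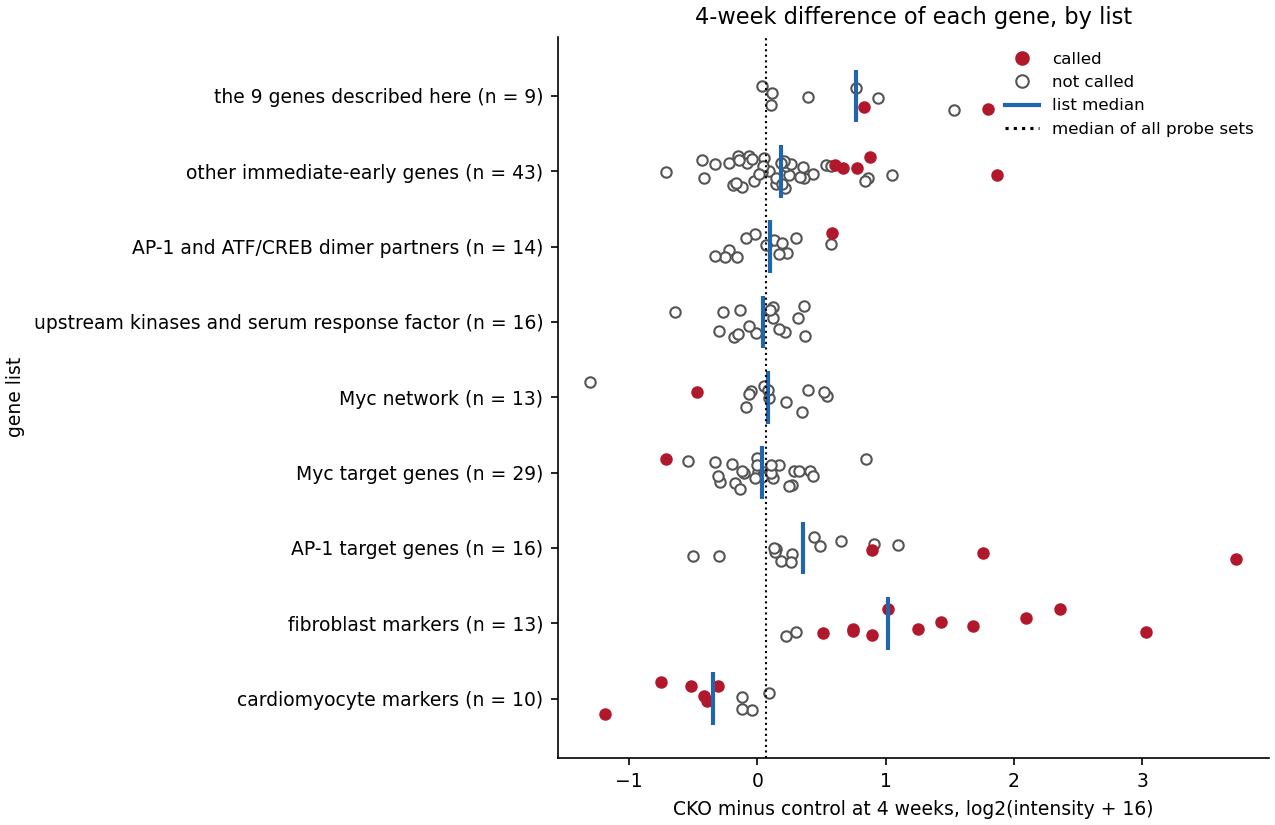
CKO minus control at 4 weeks in log2(intensity + 16), each point the brightest probe set of a gene, by list, with called genes filled. Blue bars are list medians and the dotted line is the median of all probe sets, 0.07. The 9 genes described here have 2 filled points, at 0.83 and 1.80, the Myc target genes have 1, below 0, and 11 of 13 fibroblast markers are filled, all above 0.

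Atf3 104155_f_at was compared with 6639 probe sets with a symbol, the dimmest 40% of all probe sets being left out. The genes whose values over the 15 arrays were most like those of Atf3 104155_f_at were Eef1a1 (Pearson r = 0.91), Galnt2 (r = 0.90), Gadd45g (r = 0.89) and Lypla1 (r = 0.89). Of the other 8 genes of the group, Ier3 was the most like it, with r = 0.84, followed by Myc with r = 0.72. For Fos they were Flii (r = 0.89), Igfbp6 (r = 0.87), Mt2 (r = 0.87) and Serpina3n (r = 0.86), and for Myc they were Ndrg1 (r = 0.90), Dnttip2 (r = 0.90), Adssl1 (r = 0.89) and Ccn2 (r = 0.89). The arrays share genotype, age and array set, so these values describe a common pattern over groups. After group and set effects were taken out, Atf3 had r = 0.62 with Jun, 0.54 with Fos, 0.43 with Ier3, 0.34 with Myc and -0.54 with Jund, so that Jun was then the most like it of the 9 genes. Myc and Ier3 had r = 0.00, and the closest to Fos was Mt2, a metallothionein gene, with r = 0.88.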

How the data were processed

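Total RNA of 15 mouse hearts was read on a 1-colour oligonucleotide array. The table that the authors deposited holds a linear intensity for every probe set on each array. No source used here gives the scaling or the software. A floor of 0.95 held 81 to 191 probe sets on an array. Of 12422 probe sets, 10833 have 1 gene symbol in the platform annotation, 396 several and 1193 none. The members and gene lists were chosen with earlier results of these data known. Values were taken as log2(intensity + 16), without further normalization, and fitted in limma 3.58.1 (R 4.3.3; lmFit, eBayes with trend) with 1 coefficient a group over all 15 arrays, two-sided, adjusted by Benjamini-Hochberg over all probe sets. A fold change is on that scale and understates changes of dim genes. Members are named whatever their values, and from each list the 3 genes with the smallest p among those called at 4 weeks, by the brightest probe set. No statement gives separate animals for replicates beyond the number per group, so p-values measure the spread between these samples. No arrays held identical values. Sample numbers were not taken as pairs: no label ties them, and over 19 same-numbered pairs r of deviations ranged from -0.74 to 0.85, and from -0.25 to 0.32 (median 0.14) with array set removed. The fits were tested on simulated data that held no array sets, so that test cannot show how they behave where the sets differ. The number of arrays limits the precision. Alternatives were scaling, pseudocount, probe-set filter, array set, inferred sex, replicate number, array weights and leaving out each array.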

Additional observations from a re-analysis of the deposited data

Results flagged for a closer look

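Among the 28 combinations of a member probe set and a group of 4 or 5 arrays, 1 held an array far from the others, where chance alone marks about 1 in 20 such groups. Junb 102362_i_at read 240.7 in CKO replicate 4 at 4 weeks, against 321 to 353 in the other 4 CKO arrays, a gap of 0.752 of the whole range. The same array was the lowest CKO array for Egr1, Ier2 and Jund.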

How the results depend on the processing

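Atf3 104155_f_at at 4 weeks stayed called in all 30 alternatives, at adjusted p-values of 2.7e-06 to 0.0192 by limma. Ier3 at 4 weeks lost its call under median scaling (0.75, adjusted p = 0.0628), within array set 1 (0.47, adjusted p = 0.0541) and with replicate number as a block (0.72, adjusted p = 0.0772). At 4 weeks 2 of the 14 probe sets were called, against 5 with the array set as a block, 5 with array set and inferred sex as blocks, 4 with the set block and quantile normalization, 4 within set 2, 1 within set 1, 1 under median scaling and 2 to 3 when single arrays were left out. For the difference of the effects between the ages the count of 0 became 1 with the set block, with set and sex, with the set block and quantile normalization, and within set 2. For 4 against 2 weeks in CKO hearts the count of 0 became 3 in each of these 4 settings and 0 to 1 when single arrays were left out, Ier3 being called without CKO replicate 2 of 4 weeks (0.58) and Egr1 without CKO replicate 4 of 4 weeks (1.34). For 4 against 2 weeks in control hearts it became 1, with set and sex as blocks. At 2 weeks it stayed 0 in all settings but 1, the array weights described next.

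Array weights by limma's default method stopped before they converged. They called 7 of the 14 at 4 weeks, 7 at 2 weeks, 5 for the difference of the effects and 8 for 4 against 2 weeks in CKO hearts, and over all probe sets 3383 at 4 weeks and 5050 at 2 weeks. A gene-by-gene estimate of the weights, added after this was seen, called 5 of the 14 at 4 weeks, 0 at 2 weeks, 0 for the difference and 2 for 4 against 2 weeks in CKO hearts. The cause of these shifts in counts was not tested. Replicate number as a block called 1 of the 14 at 4 weeks and 1, Fos, for 4 against 2 weeks in CKO hearts. With array set removed, deviations of same-numbered arrays of different groups had r of -0.25 to 0.32 (median 0.14), against a median of -0.02 for other numbers. Over all probe sets, 779 were called at 4 weeks, against 2760 with the set block, 2337 with set and sex, 2703 with the set block and quantile normalization, 2063 with gene-by-gene weights, 2015 within set 2, 462 in a fit of the compared groups only, 372 with the replicate block, and 342 and 403 without control replicate 2 and 3 of 4 weeks. For the difference of the effects 66 were called, against 683 with the set block, and for 4 against 2 weeks 414 in CKO hearts and 42 in control hearts, against 1771 and 369.

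Of 2026 recomputed differences of the 14 probe sets, 3 lost a call, all of Ier3, 61 gained one, and none changed sign while called. A further 148 changed sign without being called under either setting. Differences of Myc, Fos 161716_at and Egr1 161802_i_at rest on signals near the pseudocount, where precision is low.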
